A study of Mus musculus with 24 samples.

Results

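The acute phase response is the change in the plasma proteins made by the liver after infection or injury. Cytokines of the interleukin-1 and interleukin-6 families reach the hepatocyte and act through NF-kB, STAT3 and C/EBP factors on the promoters of positive acute phase genes, whose proteins are then secreted into blood. In mice the serum amyloid A genes are among the strongest responders and C-reactive protein among the weakest. The 10 genes described here are Saa1, Saa2, Saa3, Orm1, Orm2, Lcn2, Hp, Crp, Apcs and Fgb. They were picked by symbol as members of this response, and all 10 were found among the 55450 genes of the table.

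Thumpd1 is an adaptor protein for the acetylation of cytidine in tRNA, and the study asked how its loss changed transcript levels in 3 tissues. Total RNA was sequenced from the liver, cerebellum and testes of mice with a Thumpd1 deletion (KO) and of wild types (WT). There were 24 libraries in 6 groups of 4, with WT replicates numbered 1 to 4 and KO replicates 5 to 8 in each tissue. The KO allele came from Cas9 protein and a pair of guide RNAs that cut in exon 1 and exon 4 of Thumpd1, injected into fertilized C57BL/6N eggs, and was backcrossed on C57/BL6. The allele was constitutive, so that all cell types lacked the gene, and controls were littermates of the same age without the deletion. Mice of both genotypes were 6 to 12 weeks old and of either sex by the study's methods, and the labels name no treatment, infection or injury. The Y-linked transcript Ddx3y was at 11.9 CPM (expected counts scaled to a common library total) or more in all 24 libraries. Each library thus held male RNA. Thumpd1 itself lay between 9.19 and 26.3 CPM in the 12 WT libraries and between 0 and 1.14 CPM in the 12 KO libraries.

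Library totals ran from 16353797 to 37889615 expected counts. Libraries with neighbouring numbers (1 with 2, 3 with 4, 5 with 6, 7 with 8) were often alike. The median absolute log2 difference between genes was 0.0518 to 0.09995 for neighbours in WT liver and 0.105 to 0.143 for other pairs, and in KO liver it was 0.0747 to 0.0818 against 0.164 to 0.176. In 18 of 24 libraries the closest library of the same group was the neighbour. The labels do not tie libraries to animals, so p-values measure the spread between libraries, and calls in liver and testes are given again with neighbours summed (n = 2 per genotype) or with a correlation within neighbours. In cerebellum, calls are given again with neighbours summed. A set of 6 abundant noncoding RNAs took 17.5% to 31.0% of the counts in liver.

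All 10 genes are protein coding. In mm10 with GENCODE M21, Saa1 lies on the minus strand of chromosome 7 (46740497 to 46742980) and Saa2 on the plus strand next to it (46751790 to 46754313), with Saa3 nearby on the minus strand (46711998 to 46715700). Orm1 (63344560 to 63348163) and Orm2 (63362449 to 63365878) flank Orm3 on the plus strand of chromosome 4. The pentraxins Crp (plus strand, 172698055 to 172833031) and Apcs (minus strand, 172893961 to 172895041) are neighbours on chromosome 1. Fgb lies on the minus strand of chromosome 3 (83040141 to 83049863), Lcn2 on that of chromosome 2 (32384633 to 32388252) and Hp on that of chromosome 8 (109575128 to 109579172). No exon of the 10 genes overlapped an exon of another annotated gene.

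Promoter windows from 250 bases before to 50 after the RefSeq start (GRCm38.p6) were at hand for 8 of the 10 genes. Windows are shown for the 3 Saa genes, because Saa1 and Saa2 varied together between livers while Saa3 did not follow them, and for Fgb, which was called in liver. Capitals mark matches, on either strand, to the C/EBP-type letters TTNNGNAAT, the STAT-type letters TTCNNNGAA or the NF-kB-type letters GGNNTTTCC.
Saa1, chr7:46742931-46743230, minus strand: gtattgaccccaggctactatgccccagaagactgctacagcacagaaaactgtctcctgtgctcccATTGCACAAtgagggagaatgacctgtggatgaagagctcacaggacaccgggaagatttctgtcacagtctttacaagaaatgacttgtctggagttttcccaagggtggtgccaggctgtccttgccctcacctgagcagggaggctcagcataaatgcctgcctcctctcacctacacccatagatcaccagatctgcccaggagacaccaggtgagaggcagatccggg
Saa2, chr7:46751583-46751882, plus strand: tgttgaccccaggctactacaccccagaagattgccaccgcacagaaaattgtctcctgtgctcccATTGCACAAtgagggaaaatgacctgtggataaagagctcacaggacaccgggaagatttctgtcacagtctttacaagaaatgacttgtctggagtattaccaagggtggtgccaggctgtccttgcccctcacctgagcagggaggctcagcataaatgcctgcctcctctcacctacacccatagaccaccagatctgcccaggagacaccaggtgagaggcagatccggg
Saa3, chr7:46715627-46715926, minus strand: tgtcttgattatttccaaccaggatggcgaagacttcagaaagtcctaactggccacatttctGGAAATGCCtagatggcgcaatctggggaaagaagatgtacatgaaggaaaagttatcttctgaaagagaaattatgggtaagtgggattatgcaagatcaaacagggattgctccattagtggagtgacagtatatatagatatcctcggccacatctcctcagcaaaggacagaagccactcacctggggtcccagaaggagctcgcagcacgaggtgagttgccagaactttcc
Fgb, chr3:83049814-83050113, minus strand: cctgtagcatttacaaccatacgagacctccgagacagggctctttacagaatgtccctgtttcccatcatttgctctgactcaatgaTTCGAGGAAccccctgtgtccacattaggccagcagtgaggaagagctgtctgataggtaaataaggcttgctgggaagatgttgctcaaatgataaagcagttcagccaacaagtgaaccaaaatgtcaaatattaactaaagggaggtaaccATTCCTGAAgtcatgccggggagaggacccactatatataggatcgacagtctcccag

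The Saa1 and Saa2 windows were 96.0% identical over 299 aligned bases, and both held the same C/EBP-type match. The Saa3 window held an NF-kB-type match, and the Fgb window held a STAT-type and a C/EBP-type match that did not overlap. Of the 8 windows, 5 held the C/EBP-type letters, against 11.5% of all 32851 windows. The STAT-type letters were in 2 of 8 windows (8.30% of all) and the NF-kB-type letters in 1 of 8 (5.82% of all). These matches are a description of the letters and not of binding.

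Levels were compared between genes only per transcript length, as TPM, which divides by the length of the transcript and scales each library to the same total, computed from the expected counts and the principal transcript. In WT liver the order ran from Hp, the hemoglobin-binding protein haptoglobin, at 1297 ± 322 TPM (SD, n = 4) to Lcn2, the siderophore-binding lipocalin of neutrophils and epithelia, at 1.25 ± 0.666 TPM. Between them stood Fgb, the fibrinogen beta chain (522 ± 68.9 TPM), Orm1, an alpha-1-acid glycoprotein (234 ± 51.6), Crp (93.7 ± 10.2), Saa1 (27.4 ± 4.67), the serum amyloid P component gene Apcs (18.7 ± 3.09), Saa2 (5.94 ± 1.50), Saa3 (3.13 ± 0.398) and Orm2 (2.46 ± 0.792). The WT libraries of Saa1 and Apcs overlapped, as did those of Saa3 and Orm2 and those of Orm2 and Lcn2. All other neighbours in this order were apart in every WT liver library.

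**Figure D1:**
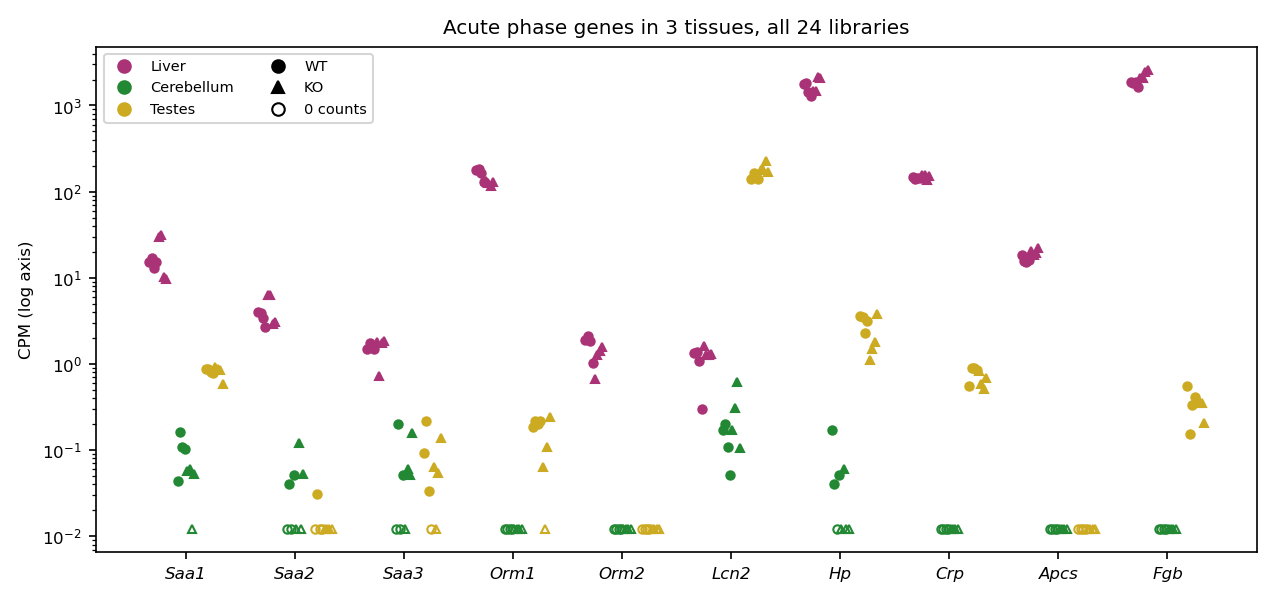
CPM of each gene in all 24 libraries on a log axis, by tissue (colour) and genotype (circles WT, triangles KO), with open symbols at the foot of the axis for libraries with 0 counts. For 9 of the genes every liver library lies above every library of the other tissues, Lcn2 is highest in testes, and 5 genes have 0 counts in all 8 cerebellum libraries.

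In the other tissues most of the 10 genes were near or at 0. In cerebellum Orm1, Orm2, Crp, Apcs and Fgb had 0 counts in all 8 libraries, which allows up to 0.121 to 0.183 CPM per library (3 counts, counting error only). Saa1, Saa2, Saa3, Hp and Lcn2 reached at most 0.162, 0.122, 0.202, 0.173 and 0.613 CPM there. In testes Apcs and Orm2 had 0 counts in all 8 libraries, which allows up to 0.0819 to 0.110 CPM, and Saa2 had 1 count in 1 library. Saa1 lay between 0.588 and 0.928 CPM and Crp between 0.519 and 0.903 CPM in testes, Fgb between 0.155 and 0.561 CPM, Orm1 between 0 and 0.242 CPM and Saa3 between 0 and 0.217 CPM.

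Lcn2 had the opposite tissue order. It was 145 times higher in WT testes than in WT liver by CPM, and every testes library was above every liver library. For Hp, WT liver was 503 times higher than WT testes, and for Crp 180.0 times. Liver libraries were above all cerebellum and testes libraries for Saa1, Saa2, Saa3, Orm1, Orm2, Hp, Crp, Apcs and Fgb.

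In liver, 2 of the 10 genes differed between genotypes after adjustment over all genes tested, and in opposite directions. Neither passed with a correlation within neighbours (adjusted p by limma 0.113 for Orm1 and 0.0851 for Fgb) or with neighbours summed. Fgb was higher and Orm1 lower in KO, each by less than a factor of 1.5. The serum amyloid genes Saa1, Saa2 and Saa3, Hp, Crp, Apcs, Orm2 and Lcn2 did not pass the test. All 10 genes were among the 12816 genes that had at least 1 CPM in at least 4 liver libraries, and limma-voom called 757 of those genes (5.91%) at an adjusted p under 0.05 in either direction. The 10 genes had a median log2 difference (KO minus WT) of 0.12, beside 0.00 over all tested genes. By CPM, WT and KO libraries did not overlap for 2 of the 10 genes, Fgb and Apcs, against 12.7% of all genes tested. By TPM both of these genes overlapped. Positions of single libraries are by CPM unless TPM is named.

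Saa1 and Saa2 encode the acute phase serum amyloid A proteins carried on high-density lipoprotein. Saa1 stood at 15.2, 16.9, 13.2 and 15.3 CPM in WT livers 1 to 4 and at 29.9, 31.0, 10.3 and 9.82 CPM in KO livers 5 to 8. Saa2 stood at 4.02, 3.87, 3.42 and 2.67 CPM in WT livers and at 6.39, 6.24, 2.94 and 3.11 CPM in KO. For Saa1, KO livers 5 and 6 were above every WT liver and KO livers 7 and 8 below every WT liver, so that the KO group lay on both sides of WT. For Saa2, KO livers 5 and 6 were above every WT liver and 7 and 8 within the WT range. The mean of KO livers 5 and 6 was 3.02 times that of 7 and 8 for Saa1 and 2.09 times for Saa2, while WT livers 1 and 2 were 1.13 and 1.30 times 3 and 4. The log2 difference KO minus WT was 0.10 ± 0.37 (SE) for Saa1, with a 95% interval of -0.71 to 0.90 and an adjusted p (limma) of 0.906. For Saa2 it was 0.14 ± 0.27, with an interval of -0.46 to 0.75 and an adjusted p (limma) of 0.801. The log2 differences of Saa1 and Saa2 were 0.42 and 0.41 with edgeR (adjusted p 0.516 and 0.402) and 0.45 and 0.43 with DESeq2 (adjusted p 0.606 and 0.349). Without KO liver 5 or KO liver 6 the fitted difference of either gene turned negative, as given with the processing alternatives.

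The counts of Saa1 and Saa2 were not separable in full. Their longest protein-coding transcripts were 94.4% identical over 606 aligned bases. In 5 of 8 liver libraries the Saa1 value was not a whole number (tolerance 0.02), and the sum of Saa1 and Saa2 was whole in all 8, so RSEM had divided reads between them. Summed, the pair reached 18.6 ± 1.79 CPM (SD, n = 4) in WT livers against 24.9 ± 13.7 CPM in KO livers, with a log2 difference of 0.14 ± 0.34 (SE) and an adjusted p (limma) of 0.850. The SD over the KO livers was larger than the difference between the group means.

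Saa3, the serum amyloid A gene known from macrophages and adipose tissue, was near the filter. It stood at 1.49, 1.75, 1.62 and 1.48 CPM in WT livers and at 1.80, 0.716, 1.77 and 1.85 CPM in KO livers. KO liver 6, with 13 counts, was below all other livers, and the other 3 KO livers were just above the WT range. Its log2 difference was -0.13 ± 0.24 (SE), with an interval of -0.66 to 0.40 and an adjusted p (limma) of 0.797. KO livers 5 and 6, which shared the high Saa1 and Saa2 values, held the second-highest and the lowest Saa3 values of the KO group.

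**Figure D2:**
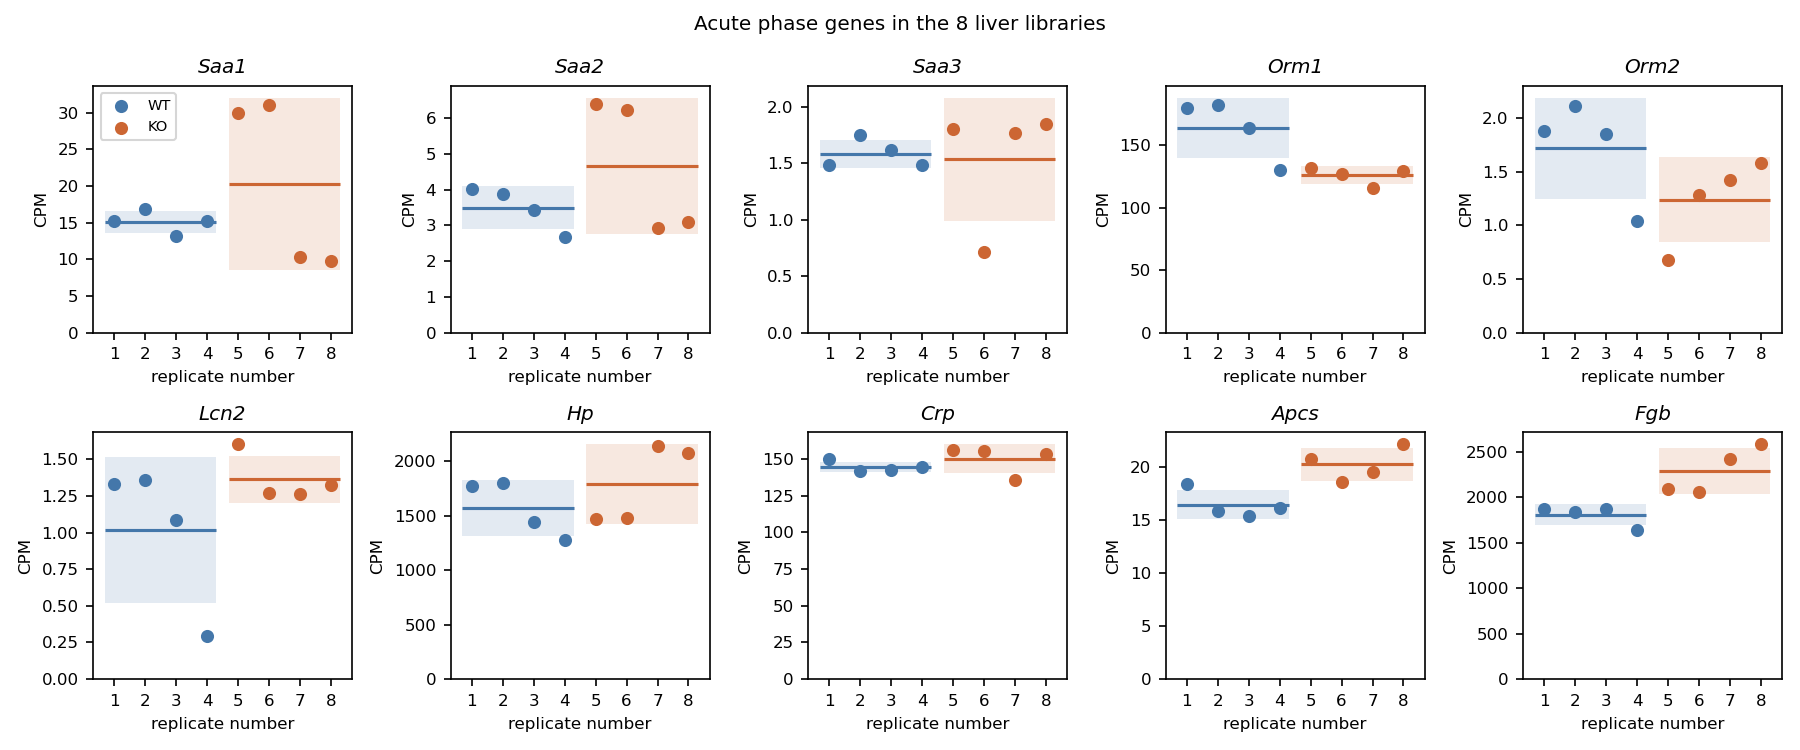
CPM of each gene in the 8 liver libraries by replicate number, with the mean of each genotype as a line and 1 SD as a band (n = 4). For Saa1 and Saa2 the KO libraries split into 5 and 6 (high) and 7 and 8 (low), Fgb and Apcs lie higher in every KO library than in any WT library, and Orm1 is lower in KO except beside WT library 4.

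Orm1 and Orm2 encode alpha-1-acid glycoproteins, plasma carriers of basic lipophilic ligands. Orm1 stood at 179.6, 182.5, 163.9 and 130.1 CPM in WT livers and at 132.0, 126.7, 115.7 and 129.3 CPM in KO livers. WT livers 1 to 3 were above every KO liver, and WT liver 4 was within the KO range, just below KO liver 5. The log2 difference was -0.35 ± 0.080 (SE), with an interval of -0.53 to -0.18 and an adjusted p (limma) of 0.0280. Orm1 thus fell to 0.782 of its WT level. Without WT liver 1, 2 or 3 or KO liver 7 or 8 the call was lost, with adjusted p (limma) of 0.0915, 0.0917, 0.0726, 0.0599 and 0.0671. With neighbours summed the adjusted p (limma) was 0.440, and with a correlation within neighbours 0.113, at log2 differences of -0.36 in both.

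Orm2 was far less abundant. It stood at 1.87, 2.11, 1.85 and 1.04 CPM in WT livers and at 0.674, 1.28, 1.42 and 1.58 CPM in KO livers. As for Orm1, WT livers 1 to 3 were above every KO liver and WT liver 4 was within the KO range. KO minus WT came to -0.51 ± 0.27 on the log2 scale (SE), with an interval of -1.10 to 0.09 and an adjusted p (limma) of 0.294. Orm1 and Orm2 transcripts were 91.0% identical over 775 aligned bases, Orm1 was not whole in any of the 8 liver libraries, and the sum of Orm1, Orm2 and Orm3 was whole in all 8. The sum of the 3 genes was 166 ± 24.6 CPM (SD, n = 4) in WT livers against 127 ± 6.93 CPM in KO livers, with a log2 difference of -0.35 ± 0.080 (SE) and an adjusted p (limma) of 0.0306.

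Fgb encodes the beta chain of fibrinogen, the precursor of the fibrin clot. It stood at 1874, 1843, 1876 and 1641 CPM in WT livers and at 2093, 2060, 2424 and 2584 CPM in KO livers. By CPM every KO liver was above every WT liver, and KO livers 7 and 8 were the highest. By TPM the groups overlapped, with 440 to 596 in WT and 493 to 780 in KO livers. The log2 difference was 0.27 ± 0.063 (SE), with an interval of 0.13 to 0.41 and an adjusted p (limma) of 0.0303, a rise to 1.21 times the WT level. The call was lost without WT liver 1 (adjusted p by limma 0.0963), 2 (0.0910) or 3 (0.0523) and without KO liver 5 (0.0552), 7 (0.0613) or 8 (0.0733). With neighbours summed the adjusted p (limma) was 0.538, and with a correlation within neighbours 0.0851.

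The other fibrinogen chains were not picked as members and served as a comparison. Fgg, the gamma chain, stood at 1780, 1757, 1704 and 1420 CPM in WT livers and at 1828, 1837, 2211 and 2315 CPM in KO livers. As for Fgb by CPM, every KO liver was above every WT liver and the 7 and 8 pair was highest. The log2 difference of Fgg was 0.25 with an adjusted p (limma) of 0.0266, and its call was lost in both neighbour settings. Exons of Fgg overlap those of Gm30097 on the other strand, and the strand used in counting is not given in the sources used here. Fga, the alpha chain, stood at 3304, 3189, 2916 and 2371 CPM in WT livers and at 2410, 2444, 3504 and 3691 CPM in KO livers, so that the groups overlapped.

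Crp and Apcs encode pentraxins, pattern-recognition proteins of plasma. In mice Apcs and not Crp is the strong acute phase pentraxin. Crp stood at 149.6, 141.5, 142.8 and 144.2 CPM in WT livers and at 156.3, 155.2, 135.3 and 153.4 CPM in KO livers. By CPM, KO livers 5, 6 and 8 were above every WT liver and KO liver 7 below every WT liver. By TPM, KO livers 5 and 6 (82.7 and 83.8) were below the WT range of 84.5 to 106.9, and 7 and 8 within it. The log2 difference of Crp was 0.07 ± 0.077 (SE), with an interval of -0.10 to 0.24 and an adjusted p (limma) of 0.615. Its interval was among the narrowest of the 10 genes.

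Apcs stood at 18.4, 15.9, 15.3 and 16.2 CPM in WT livers and at 20.7, 18.5, 19.5 and 22.1 CPM in KO livers. By CPM every KO liver was above every WT liver. By TPM Apcs overlapped between the groups, with 15.8 to 22.9 in WT and 17.4 to 26.2 in KO livers. Its log2 difference was 0.30 ± 0.083 (SE), with an interval of 0.12 to 0.49 and an adjusted p (limma) of 0.0573, just above the threshold. DESeq2 gave an adjusted p of 0.0170 and edgeR 0.0514. Leaving out WT liver 4 brought the adjusted p (limma) to 0.0492, and summing neighbours took it to 0.469.

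Hp binds free hemoglobin in plasma and is made by hepatocytes at a high basal level. It stood at 1777, 1800, 1440 and 1274 CPM in WT livers and at 1473, 1483, 2137 and 2079 CPM in KO livers. KO livers 7 and 8 were above every WT liver, and 5 and 6 were within the WT range. KO minus WT came to 0.15 ± 0.095 on the log2 scale (SE), with an interval of -0.06 to 0.36 and an adjusted p (limma) of 0.387. Lcn2 stood at 1.33, 1.36, 1.09 and 0.296 CPM in WT livers and at 1.60, 1.27, 1.27 and 1.32 CPM in KO livers. WT liver 4, with 8 counts, was far below the others, and the remaining libraries overlapped. The log2 difference of Lcn2 was 0.49 ± 0.40 (SE), with an interval of -0.39 to 1.38 and an adjusted p (limma) of 0.505. Without WT liver 4 it was 0.020 (adjusted p by limma 0.965).

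**Figure D3:**
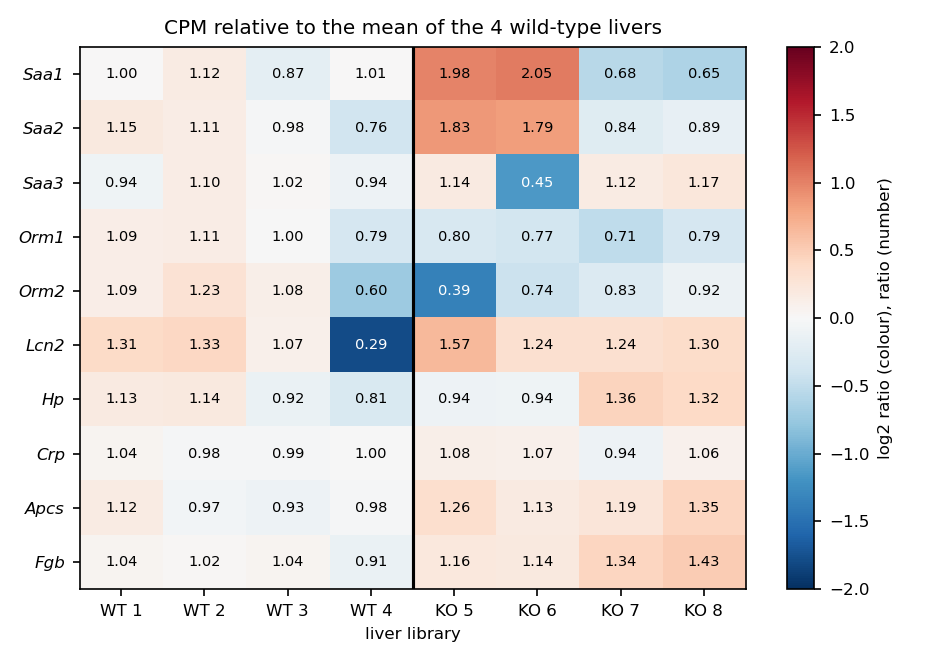
CPM of each gene in each liver library divided by the mean of the 4 WT livers, with the ratio printed and its log2 as colour. KO libraries 5 and 6 reach 1.98 and 2.05 for Saa1 while KO libraries 7 and 8 are at 0.683 and 0.649, and Hp and Fgb show their highest ratios in KO libraries 7 and 8.

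The 10 genes did not move as 1 block over the KO livers. By CPM, Saa1, Saa2 and Crp were higher in both of KO livers 5 and 6 than in either of 7 and 8. Hp, Fgb and Orm2 were lower in both, and the other 4 genes overlapped. Of all 12816 genes tested in liver, 61.4% were apart between these KO pairs, close to the 6 of 10 here. Over all these genes, 2583 were higher and 5291 lower in 5 and 6. By TPM, Crp turned to lower in both of 5 and 6, and Saa3, Orm1 and Apcs were lower in both too. The mean of KO livers 7 and 8 was 1.43 times that of 5 and 6 for Hp and 1.21 times for Fgb. The hepatocyte list, which holds Fgb, summed to 58204 to 77429 CPM in WT and 69482 to 100049 CPM in KO livers, with 2 of its 9 genes called higher and 1 lower. Limma called 0 higher and 1 lower of the 9 with a correlation within neighbours, at adjusted p of 0.0559 for Apoa1 and 0.0851 for Fgb, and with neighbours summed it called 0. Whether the share of hepatocyte RNA had a part in the levels of these genes was not tested. In bulk tissue, fewer cells of a type and less RNA per cell cannot be told apart.

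**Figure D4:**
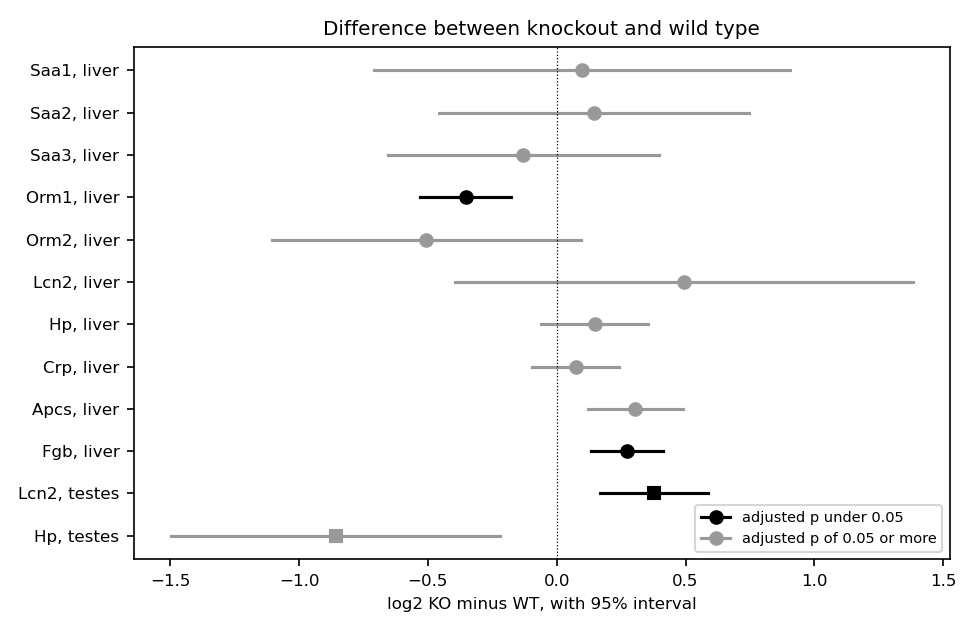
Log2 difference KO minus WT of each gene tested, with its 95% interval (n = 4 per genotype), for 10 genes in liver (circles) and 2 in testes (squares). Black marks an adjusted p under 0.05, which holds for Orm1 and Fgb in liver and Lcn2 in testes, and the intervals of Saa1, Saa2, Orm2 and Lcn2 in liver are wide.

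Other genes of the response were read from lists written from general knowledge. Of 38 further positive acute phase genes, 34 were tested in liver, 3 were called higher and 2 lower, and their median log2 difference was 0.00. Of the 3, Il1rn passed the filter on low values only through the KO livers, the group where it was high, so its call is no support for a rise. The iron reductase gene Steap4 rose by 0.43 on the log2 scale (adjusted p by limma 0.00215), and Fgg rose as given above. Il1rn, the secreted antagonist of interleukin-1, lay between 0.372 and 0.964 CPM in WT livers and between 1.05 and 2.19 CPM in KO livers (log2 difference 1.41, adjusted p by limma 0.0496). Vwf, the von Willebrand factor of endothelium, fell by 0.60 (adjusted p by limma 0.0149) and the leucine-rich glycoprotein gene Lrg1 by 0.49 (0.0264). With a correlation within neighbours Steap4 and Lrg1 kept an adjusted p under 0.05 (0.0103 and 0.0491). It rose to 0.0784 for Fgg, 0.0851 for Vwf and 0.141 for Il1rn, and with neighbours summed limma called none of the 34.

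Negative acute phase genes, whose transcripts drop in the response, gave 4 called higher and 0 called lower of 16 tested in liver, with a median of 0.05. With a correlation within neighbours limma called 3 higher and 0 lower, with Apoa1 lost (adjusted p 0.0559), and with neighbours summed it called 0. At an unadjusted p under 0.05, limma gave 5 higher and 1 lower, edgeR called 3 and 0 after adjustment, and DESeq2 called 5 and 2. The cytochrome genes Cyp3a11 and Cyp2c29 rose by 0.64 and 0.50 on the log2 scale (adjusted p by limma 0.00892 and 0.00220). Pon1, the paraoxonase of high-density lipoprotein, rose by 0.36 (0.00793), and Apoa1, its main apolipoprotein, by 0.32 (0.0303). Cyp2c29 shares exon sequence with an annotated pseudogene on its strand and its value is uncertain for that reason.

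Of 16 cytokines and receptors of the response, 9 were tested in liver and limma called 0, with 3 higher and 0 lower at an unadjusted p under 0.05, 0 by edgeR and 1 by DESeq2. Il6, the main inducer of the class, had 0 to 2 counts in the 8 liver libraries. Il1b lay between 0.185 and 0.680 CPM in WT and between 0.529 and 1.55 CPM in KO livers, and Tnf between 0.0648 and 0.310 CPM and between 0.0551 and 0.290 CPM. Both genes overlapped between genotypes. Of 22 transducers and transcription factors, 21 were tested in liver, 0 were called higher and 2 lower. At an unadjusted p under 0.05 limma gave 1 higher, and after adjustment edgeR called 0 higher and DESeq2 1. Socs3, the feedback inhibitor of STAT3 signaling, fell by 0.95 on the log2 scale (adjusted p by limma 0.0327), from 11.0 ± 1.90 CPM (SD, n = 4) in WT livers to 5.55 ± 2.06 CPM in KO livers. Bcl3, an NF-kB cofactor, fell by 0.67 (0.00409), and its exons overlap Gm16175 on the other strand. With a correlation within neighbours the adjusted p (limma) was 0.0900 for Socs3 and 0.0178 for Bcl3, and with neighbours summed limma called 0 of the 21.

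**Figure D5:**
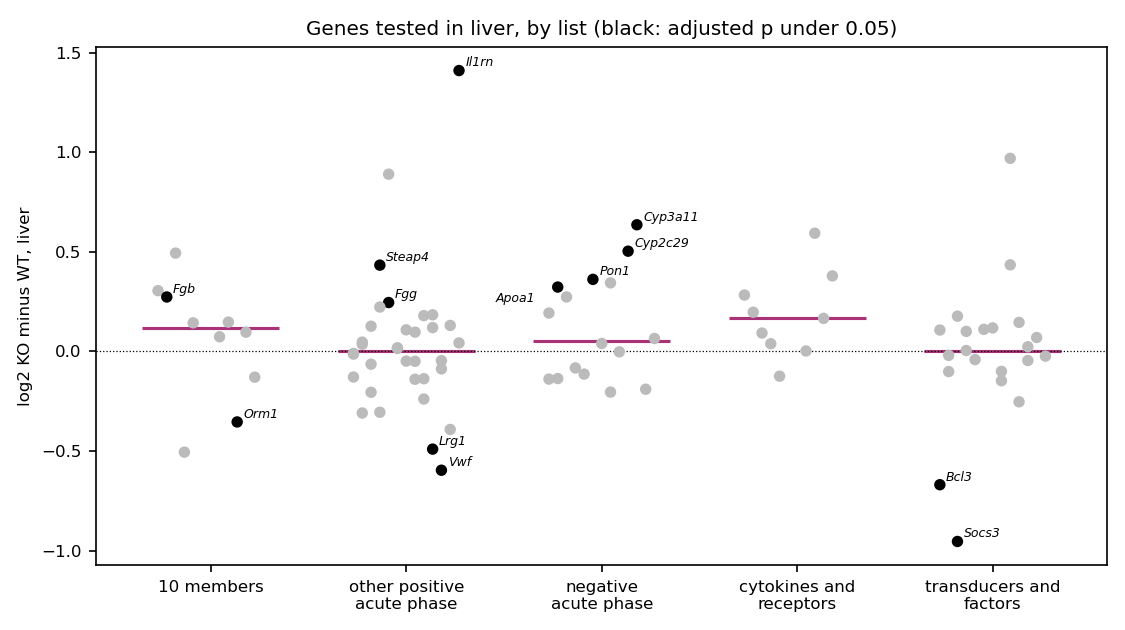
Log2 difference KO minus WT in liver for each tested gene of the 10 members and of 4 lists of related genes, with the median of each list as a line and genes at an adjusted p under 0.05 in black with their names. The medians lie at 0.12 for the members and between 0.00 and 0.17 for the other lists.

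Markers of other liver cells were at these levels beside the 10 genes. Neutrophil markers summed to 1.40 to 2.82 CPM in WT and 1.60 to 2.48 CPM in KO livers, and Ngp, Camp, Mpo and Ly6g were at 0 in all 8. Macrophage and Kupffer cell markers summed to 275 to 354 CPM in WT and 325 to 359 CPM in KO, with 1 of 11 tested genes called (Lyz2, higher, adjusted p by limma 0.0447 with a correlation within neighbours). Blood markers summed to 113 to 165 CPM and 105 to 129 CPM, with 0 of 3 tested genes called by limma, edgeR or DESeq2 and 0 at an unadjusted p under 0.05. Stellate cell and fibroblast markers summed to 137 to 171 CPM and 114 to 141 CPM, with 3 of 7 called lower, also 3 with a correlation within neighbours. With neighbours summed limma called 0 genes of these lists. Endothelial markers summed to 215 to 257 CPM and 219 to 292 CPM and lymphocyte markers to 3.52 to 3.89 CPM and 4.61 to 6.99 CPM. The part of these cells in the values of the 10 genes was not tested.

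In testes, 2 of the 10 genes passed the filter on low values, and 1 of them, Lcn2, was called. Of all 19329 genes tested there, limma called 20.5%, and WT and KO libraries were apart in 28.6%. Lcn2 stood at 141.4, 162.6, 148.8 and 140.5 CPM in WT testes and at 179.5, 177.7, 229.5 and 170.6 CPM in KO testes. Every KO library was above every WT library, and KO replicate 7 was the highest. The log2 difference was 0.38 ± 0.095 (SE), with an interval of 0.17 to 0.59 and an adjusted p (limma) of 0.0191, a rise to 1.30 times WT. Without KO replicate 7 it was 0.27 (adjusted p by limma 0.0186). The call was lost without WT replicate 1, 3 or 4 (adjusted p by limma 0.0526, 0.0552 and 0.0650), with neighbours summed (0.156) and with a correlation within neighbours (0.0685).

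Markers of testis cell types stood at these levels beside Lcn2. Sertoli cell markers summed to 861 to 1020 CPM in WT and 1094 to 1600 CPM in KO, with 4 of 6 called higher and the highest sum in KO replicate 7. Limma called 3 of the 6 with a correlation within neighbours, with Clu lost (adjusted p 0.0609). Spermatid markers summed to 8678 to 9097 CPM in WT and 6114 to 8066 CPM in KO, with 3 of 5 called lower and the lowest sum in KO replicate 7. Limma called 0 of the 5 with a correlation within neighbours, at adjusted p of 0.0554 for Prm1, 0.0539 for Prm2 and 0.101 for Tnp2. Leydig cell markers summed to 1016 to 1105 CPM in WT and to 921 to 1532 CPM in KO, with 1 of 5 called higher, also 1 with a correlation within neighbours. Fibroblast markers summed to 161 to 183 CPM in WT and 187 to 268 CPM in KO, with 2 of 7 called higher, and with a correlation within neighbours 1. Endothelial markers summed to 47.1 to 53.5 CPM and 54.2 to 65.4 CPM, with 0 of 7 called by limma, 3 higher at an unadjusted p under 0.05 and 2 higher by edgeR and by DESeq2. Of the lymphocyte markers, 1 of 2 tested (Cd3d) was called lower. With neighbours summed limma called 0 genes of these lists. Neutrophil markers summed to 2.57 to 12.4 CPM in WT and 3.61 to 7.75 CPM in KO, with S100a9 and Ly6g at 0 in all 8. The part of these cells in the Lcn2 value was not tested.

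Hp stood at 3.61, 3.51, 2.27 and 3.11 CPM in WT testes and at 1.12, 1.50, 1.80 and 3.77 CPM in KO testes. KO replicates 5 to 7 were below every WT library, and KO replicate 8 was above every WT library. The log2 difference was -0.86 ± 0.29 (SE), with an interval of -1.50 to -0.22 and an adjusted p (limma) of 0.0570. Without KO replicate 8 it was -1.19 (adjusted p by limma 0.00981), and in 1 fit over 24 libraries it was -1.89 (0.0219). It was -0.68 with edgeR and with DESeq2 (adjusted p 0.124 and 0.0788) and -0.62 without KO replicate 5 (adjusted p by limma 0.109). With a correlation within neighbours the adjusted p (limma) was 0.119, and with neighbours summed 0.230. Hp counts in testes ran from 35 to 116 per library.

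Lcn2 and Hp were tested in both liver and testes, so the KO effect could be compared between these tissues. The liver effect minus the testes effect was 0.26 ± 0.53 (SE, log2) for Lcn2 (adjusted p by limma 0.781) and 0.98 ± 0.75 for Hp (0.412), and neither passed. Of the 11611 genes tested for this difference, 12.1% were called. At an unadjusted p under 0.05 limma gave 0 of 2, and edgeR called 0 of 2.

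Related genes in testes moved as follows, and several of these calls were lost in the neighbour settings, which are given after them. Of 15 further positive acute phase genes tested, 2 were called higher and 0 lower. The 2 were Cp, the ferroxidase ceruloplasmin (log2 difference 0.61, adjusted p by limma 0.00258), and Lrg1 (0.56, 0.0389). At an unadjusted p under 0.05 limma gave 3 higher and 0 lower, and edgeR and DESeq2 each called 1 lower. Exons of Cp overlap those of Hps3 on the other strand. Of 8 cytokine and receptor genes tested, 4 were called higher and 0 lower by limma, edgeR called 5 and 0 and DESeq2 6 and 0. The 3 with the lowest p were Lifr, the leukemia inhibitory factor receptor (0.59, 0.00321), the interleukin-1 receptor gene Il1r1 (0.40, 0.00899) and the oncostatin M receptor gene Osmr (0.43, 0.0106). Of 19 transducers and factors tested, 5 were called higher and 1 lower, led by the kinase gene Jak1 (0.40, 0.0132), Fkbp5 (0.34, 0.0177) and the NF-kB subunit gene Nfkb2 (0.61, 0.0233), while edgeR and DESeq2 called 0 lower. Exons of Jak1 and Nfkb2 overlap genes on the other strand. Of 5 negative acute phase genes tested, Igf1 was higher (0.57, 0.00227) and Cyp2e1 lower (-1.82, 0.0294), but edgeR and DESeq2 did not call Cyp2e1 (adjusted p 0.0709 and 0.162). Cyp2e1 reached 1 CPM in 4 WT and 2 KO testes, so it passed the filter through WT, the group where it was high, and its call is no support for a fall.

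With a correlation within neighbours, limma called 1 of these positive genes higher in testes, with Lrg1 lost (adjusted p 0.116). It called 3 cytokine and receptor genes higher, with the receptor subunit gene Il6st lost (0.0505). Among transducers and factors it called 2 higher and 0 lower, Jak1 (0.0365) and Fkbp5 (0.0448), with Nfkb2 at 0.0629. For Igf1 the adjusted p was 0.0108. With neighbours summed limma called 0 genes of these 4 lists in testes.

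In cerebellum none of the 10 genes reached 1 CPM in any library, so none was tested in the main fit. The KO effect on them there was not detectable at this depth. Over all 16225 genes tested there, limma called 6.44%. Of 10 further positive acute phase genes tested, the protease inhibitor gene A2m (0.30, adjusted p by limma 0.00226) and Vwf (0.39, 0.0175) were higher and the hyaluronan-binding inter-alpha-trypsin inhibitor gene Itih3 (-0.37, 0.00181) lower. Of 9 cytokine and receptor genes tested, Il6st, the shared signaling subunit of the interleukin-6 family receptors, was higher (0.22, 0.00262) and the glucocorticoid receptor gene Nr3c1 lower (-0.23, 0.00730). Fkbp5, a glucocorticoid-induced chaperone gene, was the 1 call among 18 transducers and factors (0.52, 0.0175). Of 4 negative acute phase genes tested limma called 0, with 1 higher and 1 lower at an unadjusted p under 0.05 and 0 called by edgeR or DESeq2. With neighbours summed none of these genes of the 4 lists was called by limma. Markers of cell types stood at these levels beside them. Endothelial markers summed to 162 to 167 CPM in WT and 168.0 to 186 CPM in KO cerebellum, and fibroblast markers to 83.0 to 94.3 CPM and 96.0 to 103 CPM with 2 of 6 called higher. Blood markers summed to 9.34 to 9.75 CPM and 4.75 to 8.25 CPM with 1 of 4 called lower, the astrocyte marker Gfap was called higher, and of 6 neuronal markers Pcp2 was called higher and Gabra6 lower. With neighbours summed limma called 1 of these marker genes, Gabra6 (adjusted p 0.0477), and the others lay between 0.128 (Gfap) and 0.206 (Col1a2). The 1 blood marker, Alas2, was not called by edgeR (adjusted p 0.0698) or DESeq2 (0.0543). Choroid plexus markers summed to 17.0 to 1075 CPM over the WT and 21.4 to 361 CPM over the KO libraries. The part of these cells in the calls was not tested.

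The genes whose pattern over the 8 liver libraries was most like the mean pattern of the 10 were Cops2 (Pearson r = 0.988), Mfsd14b (0.981), Rock2 (0.977), Nudt16 (0.977) and Pls3 (0.969). These were taken from 11568 genes and are a description over 8 libraries that share depth and neighbour structure. The mean standardized level of the 10 genes was lowest in WT liver 4 (-0.92) and highest in KO liver 8 (0.41). For Saa1 alone, Saa2 had an r of 0.90, but reads were divided between these 2 genes and their values are not independent. The other 8 genes had r with Saa1 between -0.59 and 0.60 (Saa3 and Crp).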

How the data were processed

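Total RNA of frozen liver, cerebellum and testes was depleted of ribosomal RNA and sequenced as stranded paired ends. The authors aligned reads to mm10 with STAR and counted with RSEM on GENCODE M21 (versions and strand setting are not given in the sources used here). The deposited values are expected counts, which need not be whole and were not normalized. Sample labels gave the groups, and every column matched 1 sample. CPM divides by the library total, and TPM by principal transcript length too. The 1 CPM minimum, quantile normalization and limma-voom (limma 3.58.1, R 4.3.3) follow the study's methods. The requirement of 4 libraries and the separate fit of each tissue were chosen here, with the Benjamini-Hochberg threshold at 0.05. Tissues were contrasted in 1 fit of 24 libraries with TMM factors (edgeR 4.0.16). As alternatives, counts were rounded and fitted with edgeR or DESeq2 1.42.0, and limma was rerun with TMM, other filters, quality weights, 1 fit over 24 libraries, removal of 6 abundant noncoding RNAs, summed paralogs, each library left out and, added after seeing the data, neighbours summed or correlated. Limma fits were checked on simulated counts with independent libraries and log2 changes of 1, without neighbour structure. These changes are larger than those of the called members. Sequences came from RefSeq (GRCm38.p6). Values were tabulated in Python 3.11.15 with pandas 2.3.3 and Biopython 1.88 and drawn with matplotlib 3.10.9.

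Members and gene lists were chosen with earlier results of these data known. The text names all 10 members, up to 5 called genes per list by p in liver and up to 3 in the other tissues, and the 5 genes most like the members. Fga, Il6, Il1b, Tnf, Orm3, Il6st in testes, the marker genes, Ddx3y and Thumpd1 were named outside that rule.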

Additional observations from a re-analysis of the deposited data

Results flagged for a closer look

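In 30 groups of 4 libraries with a mean of at least 10 counts, 7 held a library set apart from the other 3, where chance would flag about 1 in 20 groups. In liver these were the lowest KO value of Saa3 (0.716 CPM, replicate 6), the highest KO value of Lcn2 (1.60 CPM, replicate 5), the lowest KO value of Crp (135 CPM, replicate 7) and the lowest WT value of Fgb (1641 CPM, replicate 4). In testes they were the highest KO value of Lcn2 (229 CPM, replicate 7), the lowest WT value of Crp (0.561 CPM, replicate 1) and the lowest KO value of Fgb (0.208 CPM, replicate 8). Fgb and Crp in testes were below 1 CPM and were not tested there in the main fit. Without a filter neither was called (adjusted p by limma 0.783 for Fgb and 0.395 for Crp).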

How the results depend on the processing

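In liver, 2 members were called with edgeR, TMM, no filter, the weaker filter, the noncoding RNAs removed or paralogs summed and 3 with DESeq2, quality weights or 1 fit over 24 libraries. Over all genes tested in liver, calls went from 757 to 1408, 1705 and 1663 in these 3. Leaving out 1 library gave 0 to 3 members, with 0 without WT 1, 2 or 3 or KO 7 or 8 and 1 without KO 5, and both neighbour settings gave 0. In testes, the count of 1 became 2 with quality weights or 1 fit over 24 libraries (Hp lower), 0 in both neighbour settings, and 0 to 2 with 1 library left out. With neighbours summed, 10 of 12816 genes were called in liver, 48 in cerebellum and 1 in testes. With a correlation within neighbours (0.476 in liver, 0.339 in testes) it was 274 and 1773.

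The fitted sign turned for Saa1 in liver with quality weights (-0.18, against 0.10) and for Saa2 (-0.10, against 0.14). Over the libraries left out, Saa1 ran from -0.18 to 0.40, Saa2 from -0.039 to 0.38 and Saa3 from -0.21 to 0.084, Lcn2 in liver from 0.020 to 0.62, and the liver minus testes difference of Lcn2 from -0.18 to 0.48. None of these values passed the test, and the cause was not tested.

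A fit with the replicate block called 0 of 2 members for the difference between tissues, as did the fit without it, while calls over all genes went from 1408 to 2378. Deviations of same-numbered libraries did not correlate above 0.1 in every pair, so the numbers were not taken to pair the tissues.

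Depth limits Saa3, Orm2 and Lcn2 in liver, with 8 to 67 counts per library. At the 1 CPM filter it leaves 8 members untested in testes and 10 in cerebellum. Without a filter limma called none of those that had counts. Their lowest adjusted p (limma) was 0.157 for Orm1 in testes and 0.292 for Saa1 in cerebellum. Leaving out a library leaves 3 against 4.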
